A study of Mus musculus with 12 samples.

Results

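The 34 genes described here encode proteins of the cardiac sarcomere and its Z-disc, together with the desmin, filamin and Xin proteins that tie Z-discs to each other and to the cell membrane. They are a list of named genes looked up by symbol in the deposited table of read counts, and all 34 were found among its 23457 rows and passed the filter on low counts. Polyadenylated RNA was sequenced from the hearts of 12 adult mice of the C57BL/6J background. By their labels, the noninduced group (6 mice) had floxed alleles and no Cre, and the Parkin KO group (6 mice) had floxed alleles and MERCreMer, with the deletion induced in the adult heart. All 12 carry a time point of 9 to 10 weeks after tamoxifen, and the labels do not settle whether the noninduced mice received it. MERCreMer, a Cre recombinase that tamoxifen activates, is labelled for the Parkin KO group alone, so loss of Parkin and presence of the recombinase cannot be told apart by design. Esr1 reads, given below, go against the label without Cre in 2 of the 6 controls, and where these reads come from was not tested. The promoter that drives MERCreMer is not given in the labels. The tissue label reads whole heart, whereas the extraction protocol names the ventricular apex.

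The sarcomere is the contractile unit of striated muscle. Myosin thick filaments, held at the M-band, pull on actin thin filaments that are anchored in the Z-disc by alpha-actinin, and titin runs as a spring from the Z-disc to the M-band. Troponins and tropomyosin on the thin filament make contraction depend on calcium. Desmin, filamin C and the Xin-repeat proteins carry force sideways between Z-discs and into the intercalated disc, where neighbouring cardiomyocytes join. Serum response factor, which binds CArG boxes, and the MEF2 factors are known regulators of many of these genes.

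The stretches before the transcription starts of 5 members are shown as examples of motif matches. Myl3 and Actc1 hold a CArG box, and Ttn, Xirp2 and Synpo2l hold a MEF2 site. No comparison of levels below uses these matches. Each stretch is the run from 250 to 33 bases before a RefSeq start on build GRCm38.p6, 5′ to 3′ on the strand of the gene. Capitals mark the match. Myl3 is at chr9:110763428-110763645 (plus strand), Actc1 at chr2:114052908-114053125 (minus), Ttn at chr2:76982580-76982797 (minus), Xirp2 at chr2:67445752-67445969 (plus) and Synpo2l at chr14:20668387-20668604 (minus). None of these stretches overlaps an annotated exon of its own gene in GENCODE M21.
Myl3: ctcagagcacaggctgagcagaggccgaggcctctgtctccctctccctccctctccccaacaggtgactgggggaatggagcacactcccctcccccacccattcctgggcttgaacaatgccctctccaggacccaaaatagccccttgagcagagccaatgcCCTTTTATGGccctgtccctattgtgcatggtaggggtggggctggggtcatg
Actc1: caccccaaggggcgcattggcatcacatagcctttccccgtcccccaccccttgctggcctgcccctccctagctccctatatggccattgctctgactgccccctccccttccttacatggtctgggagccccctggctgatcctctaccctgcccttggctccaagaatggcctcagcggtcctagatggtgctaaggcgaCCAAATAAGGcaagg
Ttn: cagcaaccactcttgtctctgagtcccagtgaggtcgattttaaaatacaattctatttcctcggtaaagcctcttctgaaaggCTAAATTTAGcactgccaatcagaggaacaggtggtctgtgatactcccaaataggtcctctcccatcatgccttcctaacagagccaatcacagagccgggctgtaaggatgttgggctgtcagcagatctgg
Xirp2: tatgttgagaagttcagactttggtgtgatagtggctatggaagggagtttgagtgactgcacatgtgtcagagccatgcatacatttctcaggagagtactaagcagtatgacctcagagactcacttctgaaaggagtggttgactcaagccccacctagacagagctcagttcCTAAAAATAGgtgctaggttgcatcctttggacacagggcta
Synpo2l: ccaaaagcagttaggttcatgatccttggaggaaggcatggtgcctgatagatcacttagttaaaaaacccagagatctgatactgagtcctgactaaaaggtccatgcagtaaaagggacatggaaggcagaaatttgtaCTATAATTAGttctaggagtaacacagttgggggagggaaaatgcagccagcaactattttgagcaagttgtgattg
The CArG box lies 85 bases before the start of Myl3 and 47 before that of Actc1. The MEF2 site lies 166 bases before the start of Ttn, 74 before that of Xirp2 and 109 before the Synpo2l start shown. Another RefSeq start of Synpo2l has a MEF2 site of its own, 144 bases before it.

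RefSeq promoters could be matched for 30 of the 34 members (not for Tcap, Myom2, Myot and Xirp1). In the 250 bases before a start, on either strand, a CArG box was found for 6 of the 30 (Actc1, Fhl2, Ldb3, Myl3, Myom1 and Nebl), beside 1.62% of 27025 genes. A MEF2 site was likewise found for 6 (Fhl2, Mybpc3, Myoz2, Synpo2l, Ttn and Xirp2), beside 3.42% of all genes. CATTCC, the MCAT element that TEAD factors bind, occurred before 10 members (33.3%), among them Myh6, Tnnt2, Tnnc1 and Tpm1, beside 14.36% of all genes. TATAAA was present before 5 members (16.7%), a share near the 14.33% of all genes. The TATAAA and MEF2 matches of Fhl2 overlap each other. These are matches of letters, with no test, and genes with several starts were counted once if any window held the motif. Some windows overlap annotated exons of their own gene. Of 250 bases, 250 overlap for Tmod1, which also has CATTCC, and 193 for Tpm1. The Fhl2 window with the MEF2 and TATAAA matches overlaps in 223.

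Each library held 11610507 to 16884516 counts, and levels are given as CPM, the usual depth-scaled count, here with TMM-scaled library sizes, on which 1 read was worth 0.0547 to 0.0947. The lowest count of any member was 150 reads, for Pdlim3. Park2, which encodes Parkin, stood at 1.54 to 3.28 CPM in Parkin KO and 1.75 to 3.22 CPM in noninduced libraries (edgeR adjusted p = 0.930), and a count over the whole gene does not check the loss of a floxed exon. Esr1, to which reads of MERCreMer can be assigned, was at 1553 to 4683 CPM in Parkin KO libraries and 24.0 to 64.9 CPM in 4 noninduced ones. The libraries labelled noninduced 1 and 3 stood apart from these with 558 and 962 CPM. Summed CPM of 14 ventricular markers outside the sarcomere ran from 35570 to 47780, and none of the 14 was at 0 in all libraries. Y-linked reads (495 to 634) marked Parkin KO 2, 5 and 6 as male, and noninduced 3 had 178 such reads together with Xist.

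The members made up a large part of the messenger RNA. Their reads took 13.2% ± 0.782 of all counts in Parkin KO (SD, n = 6) and 11.6% ± 1.24 in the noninduced group (SD, n = 6). The lowest share was 10.29% in noninduced 2 (95% Wilson interval 10.28 to 10.31) and the highest was 14.26% in Parkin KO 4 (14.24 to 14.27), intervals that cover counting error only. Shares depend on the other RNA in a library, and the 13 genes of mitochondrial DNA took 15.2% and 15.4% of counts in noninduced 1 and 2 against 4.79% to 10.0% in the other 10 libraries. With the members and the mitochondrial genes left out of the scaling, the members compared below gave nearly the same median log2 fold change (0.08, with 22 higher in Parkin KO). By mean CPM, which is not corrected for length, Myh6 ranked 1 among all genes, and 4 members stood in the top 10, 12 in the top 50 and 18 in the top 100.

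Per length, in the deposited FPKM, the members spanned more than 3 orders of magnitude. Myl2, the ventricular regulatory light chain, led with 17120 ± 2156 FPKM (SD, n = 12) and was above the next member in 12 of 12 libraries. Tnnt2 (9693 ± 895), Actc1 (8952 ± 771), Tnni3 (8154 ± 1228), Tpm1 (7404 ± 1515), Myh6, Myl3 (5933 ± 1176) and Tnnc1 (5574 ± 413) followed, and each of these neighbours changed places with the next in some libraries, except that Tnnc1 was above Tcap in 12 of 12. The myosin, troponin and actin genes thus came first, and Z-disc and desmin genes next, led by Tcap (2288 ± 573) and Des (1785 ± 315). Ttn, whose messenger RNA is among the longest known, was at only 93.7 ± 10.1 FPKM although it ranked 10 by CPM. At the foot of the order were Obsl1 (26.8 ± 5.71), Myot (26.8 ± 13.8), Nebl (14.6 ± 2.40) and Pdlim3 (10.6 ± 3.55). Myh6 was listed at 0 FPKM in Parkin KO 3 and 4 despite its counts, and Xirp2 in 6 libraries, so their FPKM (6764 for Myh6, n = 10; 48.9 for Xirp2, n = 6) are over the other libraries. All comparisons below use counts.

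**Figure D1:**
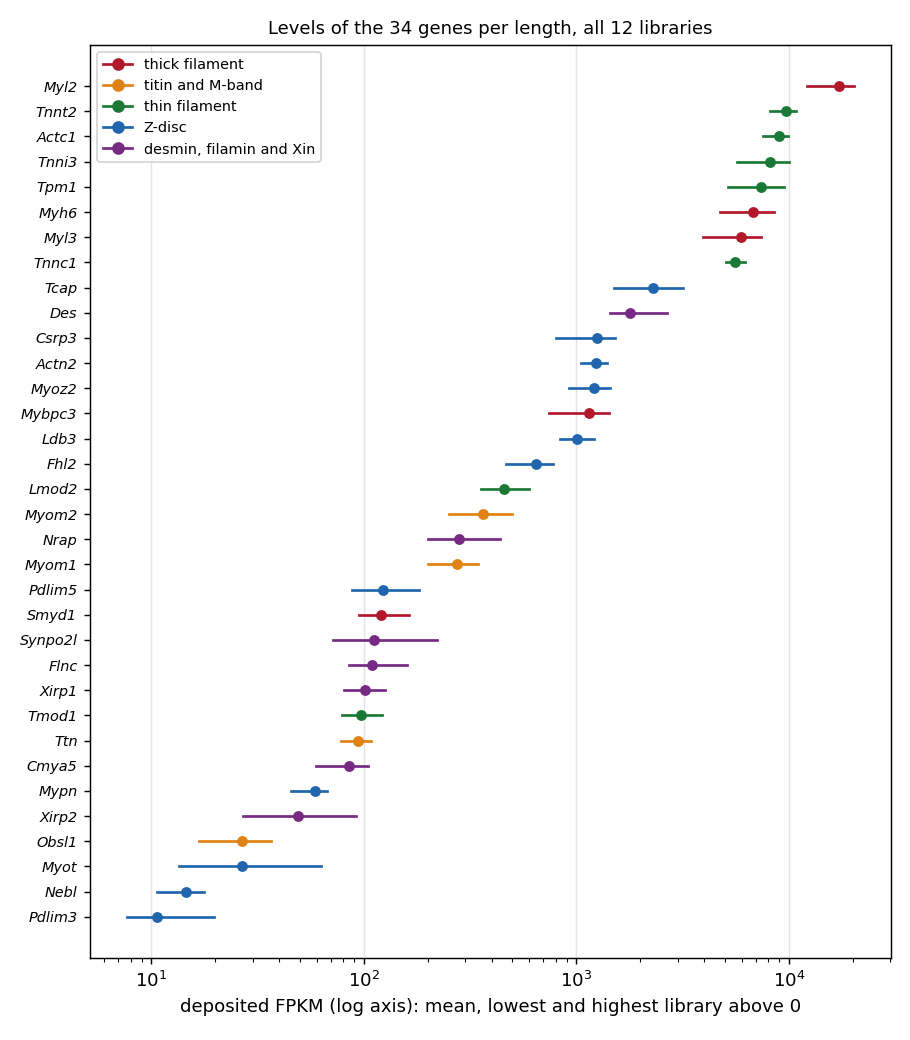
Deposited FPKM of the 34 genes on a log axis; points are means over the libraries with a value above 0, and lines run from the lowest to the highest such library. Genes of the filaments lead from Myl2 at 17120 down to Pdlim3 at 10.6, and Myot, Xirp2 and Synpo2l have the longest lines.

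No member differed between Parkin KO and noninduced hearts at an adjusted p under 0.05 (edgeR quasi-likelihood test, Benjamini-Hochberg over 13050 genes), and no gene in the table did (0 called, 0.0%). DESeq2 called 10 genes and limma-voom 0, no member among them. The lowest adjusted p was 0.424 among members and 0.417 among all genes. At an unadjusted p under 0.05, 4 of the 34 members passed (11.8%: Myl3 and Smyd1 higher, Myoz2 and Synpo2l lower in Parkin KO), a share near the 11.4% of all genes (1483). The fitted log2 fold change, Parkin KO minus noninduced, was above 0 for 22 members (64.7%) beside 52.0% of all genes. Its median was 0.10 over members and 0.01 over all genes, with a range from -0.47 (Xirp2) to 0.33 (Myl3). Of the 14 ventricular markers outside the sarcomere, 12 were higher (85.7%), with a median of 0.13, and none passed the test. The values of the 2 groups overlapped for all 34 members, while 0.345% of all genes had groups that did not overlap.

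The 95% intervals describe the difference between the groups as labelled, with the libraries labelled noninduced 1 and 3 among the controls. No intervals are given for the fit without them. For 27 members (79.4%) the whole 95% confidence interval of the fold change lay within a 1.5-fold change in either direction, beside 71.0% of all genes. The other 7 were Myh6, Myl3, Tcap, Myot, Pdlim3, Xirp2 and Synpo2l. Standard errors and intervals were derived from the estimate and its F statistic and are approximate. The labels do not say whether replicates were processed apart, so p-values measure the spread between these 12 libraries. Without the libraries labelled noninduced 1 and 3, the members called stayed at 0, with 20 higher in Parkin KO and a median of 0.05. An unadjusted p under 0.05 was then found for 2 members (Fhl2 higher, Synpo2l lower) and 7.49% of all genes. Medians by role were then 0.02 for titin and the M-band, 0.08 for the thin filament, 0.0027 for the Z-disc and -0.13 for the desmin, filamin and Xin group. The Y-linked reads show sex to be unevenly split. A term for sex counted Parkin KO 2, 5 and 6 and the library labelled noninduced 3 as male. That library, with 178 Y-linked reads beside Xist, was the only control so counted. With the term, 23 members were higher and the median was 0.12. At an unadjusted edgeR p under 0.05, 2 members (Myl3 and Myoz2) passed, beside 7.82% of all genes. Over all alternatives tried, that last count ran from 1 to 10. It was 1 in the libraries with under 100 Y-linked reads (4.71% of all genes) and without Parkin KO 6 (7.2%), and 10 without noninduced 4 (16.3%).

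**Figure D2:**
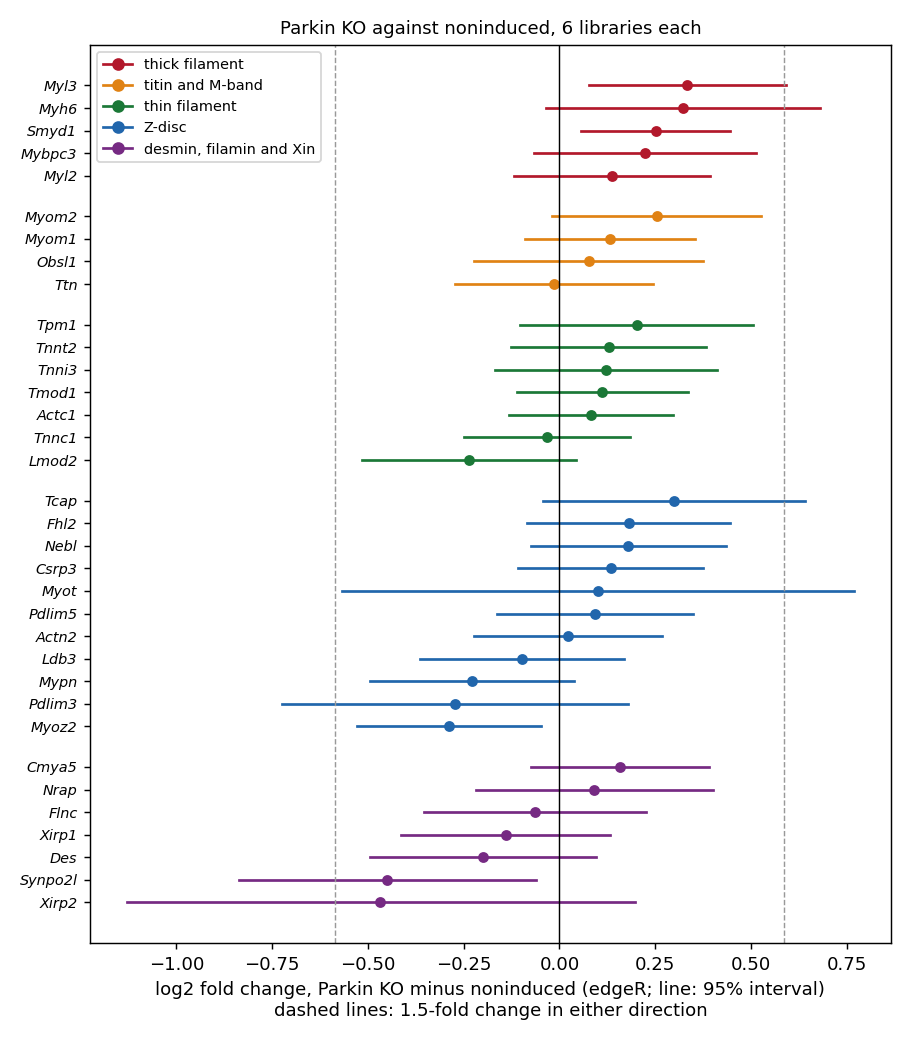
Log2 fold change of each member, Parkin KO minus noninduced, with its 95% interval, grouped by role; dashed lines mark a 1.5-fold change. All 5 thick-filament genes lie to the right of 0 and 5 of 7 genes of the desmin, filamin and Xin group to the left. Of all genes tested, 52.0% were higher in Parkin KO, and no gene passed the test.

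The 5 thick-filament genes all had fitted values higher in Parkin KO, with a median log2 fold change of 0.25, and none passed the test. Of all genes tested, 52.0% were higher, with a median of 0.01. Myh6 encodes alpha-myosin heavy chain, the main motor of the adult mouse ventricle. It ran from 34540 to 49680 CPM with a median of 41620 in Parkin KO, and from 22370 to 43720 CPM with a median of 32590 in noninduced libraries. All 6 Parkin KO libraries lay above the noninduced mean, yet noninduced 4 was above 4 of them, and noninduced 6 was the lowest of all 12. The log2 fold change of Myh6 was 0.32 ± 0.17 (SE), with an edgeR adjusted p of 0.451.

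Myl3, the ventricular essential light chain, had the highest fitted difference of all members. Its CPM was 4111 to 5219 (median 4815) in Parkin KO and 3220 to 4854 (median 3611) in noninduced libraries. Noninduced 4 was again above 4 Parkin KO libraries, noninduced 6 was above Parkin KO 2, and noninduced 2 and the library labelled noninduced 1 were the lowest. The log2 fold change was 0.33 ± 0.12 (SE), from 0.08 to 0.59 in its interval, at an unadjusted edgeR p of 0.0144 and an adjusted p of 0.424. Smyd1, a muscle methyltransferase that is needed for thick filaments to assemble, spanned 392.5 to 521 CPM (median 403) in Parkin KO and 321 to 411 CPM (median 356) in noninduced hearts. For Smyd1 the 1 control above any Parkin KO library was noninduced 4, and the gene differed by 0.25 ± 0.09 in log2 fold change (SE; edgeR adjusted p = 0.424). Mybpc3, myosin-binding protein C, and Myl2 had log2 fold changes of 0.22 and 0.14, or 0.12 and 0.02 without noninduced 2 and 5. Without the libraries labelled noninduced 1 and 3, the 5 genes were again higher, with a median of 0.22, and none had an unadjusted p under 0.05.

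Among titin and the M-band genes, Ttn was at nearly the same level in both groups. Its CPM was 6752 to 9858 (median 8069) in Parkin KO and 7515 to 9374 (median 8189) in noninduced libraries. The wider range was in Parkin KO, which held both the lowest and the highest library. The log2 fold change of Ttn was -0.01 ± 0.12 (SE; edgeR adjusted p = 0.969), with an interval from -0.27 to 0.25, and its sign turned with scaling by total counts (0.01). Myomesins crosslink thick filaments at the M-band. Myom2 ran from 1619 to 2450 CPM (median 1916) in Parkin KO and from 1368 to 2103 CPM (median 1577) in noninduced libraries. Parkin KO 1 was highest for Myom2, and noninduced 4 was above all but that library. Its log2 fold change was 0.25 ± 0.13 (SE; edgeR adjusted p = 0.448). Myom1, at 1374 to 1730 against 1218 to 1716 CPM, differed by 0.13 ± 0.10 (adjusted p = 0.599 in edgeR). Obsl1, an obscurin-like adaptor of the M-band, had 129.5 to 191.5 CPM against 109.8 to 205 CPM and a log2 fold change of 0.08 ± 0.14, which turned to -0.04 without the libraries labelled noninduced 1 and 3.

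The 7 thin-filament genes held the 2 steadiest members over the 12 libraries, Actc1 and Tnnc1, and also Lmod2, whose highest library was 1.91-fold above its lowest. Actc1, cardiac alpha-actin, was at 10370 to 12160 CPM (median 11480) in Parkin KO and 9724 to 11280 CPM (median 10920) in noninduced libraries. Its highest library of the 12 was 1.25-fold above its lowest, and its log2 fold change was 0.08 ± 0.10 (SE; edgeR adjusted p = 0.738). Tpm1, alpha-tropomyosin, ran from 6565 to 9646 CPM (median 8485) in Parkin KO and from 5955 to 9613 CPM (median 6768) in noninduced libraries. Noninduced 4 and Parkin KO 4, 5 and 6 formed its high end, and the log2 fold change was 0.20 ± 0.14 (adjusted p = 0.562 in edgeR). Tnnt2, cardiac troponin T, had 9526 to 11380 CPM (median 10550) in Parkin KO and 7765 to 11640 CPM (median 9575) in noninduced libraries, with noninduced 6 lowest and the library labelled noninduced 1 highest. The 2 groups of Tnnt2 differed by 0.13 ± 0.12 in log2 fold change (adjusted p = 0.651 in edgeR), and by 0.07 without noninduced 6. Lmod2, a leiomodin that lengthens thin filaments, went the other way, at 649 to 883 CPM (median 775) in Parkin KO and 721 to 1241 CPM (median 888) in noninduced libraries. All 6 Parkin KO libraries lay below the noninduced mean of Lmod2, which was raised by the library labelled noninduced 1, and the fitted difference was -0.24 ± 0.13 in log2 fold change (edgeR adjusted p = 0.471). Tnni3, Tmod1 and Tnnc1 had log2 fold changes of 0.12, 0.11 and -0.03, and those of Tnni3 and Tmod1 were 0.02 and 0.04 without noninduced 6. In addition, 32.6% of the exon bases of Tmod1 are shared with an opposite-strand gene, whose reads these unstranded libraries cannot separate.

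The 11 Z-disc genes split into 7 with higher and 4 with lower fitted values, and none passed the test. Actn2, alpha-actinin 2, crosslinks actin in the disc. It was at 3145 to 4039 CPM (median 3679) in Parkin KO and 3025 to 4294 CPM (median 3469) in noninduced libraries, so that the Parkin KO range lay inside the noninduced one. Its log2 fold change was 0.02 ± 0.12 (SE; edgeR adjusted p = 0.945), and it turned to -0.06 without noninduced 2 and 5 and to between -0.03 and 0.07 with single libraries left out. Tcap, telethonin, caps the end of titin. It ran from 1454 to 2447 CPM (median 1925) in Parkin KO and from 1258 to 2275 CPM (median 1461) in noninduced libraries, with noninduced 4 alone in the upper range of the controls. Tcap differed by 0.30 ± 0.16 in log2 fold change (edgeR adjusted p = 0.459).

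Myoz2, or calsarcin-1, links alpha-actinin to the phosphatase calcineurin and had the lowest fitted value of the Z-disc genes. It was at 892 to 1273 CPM (median 1045) in Parkin KO and 1113 to 1606 CPM (median 1299) in noninduced libraries. All 6 Parkin KO libraries were below the noninduced mean, and Parkin KO 2 and 5 overlapped with the controls. The log2 fold change was -0.29 ± 0.11 (SE), at an unadjusted edgeR p of 0.0218 and an adjusted p of 0.424. Mypn, myopalladin, a partner of nebulin-family proteins and alpha-actinin, was at 234 to 347 CPM (median 276) against 262 to 396 CPM (median 337), a log2 fold change of -0.23 ± 0.13 (edgeR adjusted p = 0.466). For Mypn, Parkin KO 1 and 2, noninduced 2 and the libraries labelled noninduced 1 and 3 were above the other 7.

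For 3 Z-disc genes the direction turned with the libraries left out: Actn2, Myot and Pdlim3. Myot, myotilin, was at 38.3 to 87.4 CPM (median 54.0) in Parkin KO and 31.8 to 122 CPM (median 42.3) in noninduced libraries. Noninduced 6 stood far above the other 5 controls, none of which exceeded 48.5 CPM, and the lowest were noninduced 2 and the library labelled noninduced 1. The log2 fold change of 0.10 ± 0.31 (SE; edgeR adjusted p = 0.906) became 0.52 without noninduced 6 (adjusted p = 0.311) and -0.08 without the libraries labelled noninduced 1 and 3. Pdlim3, a PDZ and LIM protein of the disc, was at 24.6 and 26.4 CPM in noninduced 2 and 5 and at 10.2 to 15.8 CPM in the other 10 libraries. The same 2 libraries had the highest levels of the atrial light chains (below), and without them the log2 fold change of Pdlim3 went from -0.27 ± 0.21 (adjusted p = 0.592) to 0.17 (edgeR adjusted p = 0.693). The other Z-disc members were Fhl2 (0.18), Nebl (0.18), Csrp3 (0.13), Pdlim5 (0.09) and Ldb3 (-0.10 in log2 fold change). Without noninduced 6, Fhl2 and Nebl were each at 0.09 and Pdlim5 at 0.22. Without the libraries labelled noninduced 1 and 3, Fhl2 was at 0.29, Csrp3 at 0.02, Pdlim5 at 0.0027 and Ldb3 at -0.0019.

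The desmin, filamin and Xin group here also takes in Synpo2l, Nrap and Cmya5. Of its 7 genes, 2 had higher and 5 lower fitted values, with a median of -0.14. The split was 3 and 4 without noninduced 6 and in the libraries with under 100 Y-linked reads. Des, desmin, forms the intermediate filaments around Z-discs. It was at 2843 to 3858 CPM (median 3411) in Parkin KO and 2970 to 5034 CPM (median 3841) in noninduced libraries. The highest values were in noninduced 6 and in the library labelled noninduced 1, and the fitted log2 fold change was -0.20 ± 0.14 (SE; edgeR adjusted p = 0.555), or -0.12 without noninduced 6. Synpo2l, an actin-binding protein of the Z-disc, was at 271.5 to 452 CPM (median 358) in Parkin KO and 315 to 801 CPM (median 462.5) in noninduced libraries. All 6 Parkin KO libraries lay below the noninduced mean, noninduced 4 lay below 5 of the 6, and noninduced 6 was far above the rest. The log2 fold change of Synpo2l was -0.45 ± 0.18 (SE), at an unadjusted edgeR p of 0.0260 and an adjusted p of 0.424. Leaving out noninduced 6 brought it to -0.27 (edgeR adjusted p = 0.371).

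Xirp2, a Xin-repeat protein of the intercalated disc and Z-disc, had the widest span of the members, with its highest library 5.67-fold above its lowest. It ran from 185 to 747 CPM (median 358) in Parkin KO and from 334 to 1048 CPM (median 471) in noninduced libraries. In each group 1 library stood above the others, Parkin KO 1 and noninduced 6. Xirp2 differed by -0.47 ± 0.31 in log2 fold change (SE; edgeR adjusted p = 0.540). It was -0.19 without noninduced 6 (adjusted p = 0.737) and -0.75 without Parkin KO 1 (adjusted p = 0.336). Nrap, an actin anchor of developing myofibrils and intercalated discs, was at 1347 to 1855 CPM (median 1512) against 1221 to 2196 CPM (median 1304), with Parkin KO 1 and noninduced 6 again highest. Its log2 fold change of 0.09 ± 0.15 (edgeR adjusted p = 0.805) was 0.24 without noninduced 6. Cmya5, myospryn, was at 834 to 1218 CPM against 748 to 1031 CPM (0.16 ± 0.11 in log2 fold change, edgeR adjusted p = 0.555), and 21.7% of its exon bases are shared with opposite-strand genes. Xirp1 and Flnc had log2 fold changes of -0.14 and -0.06, and that of Flnc was 0.03 without noninduced 6.

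**Figure D3:**
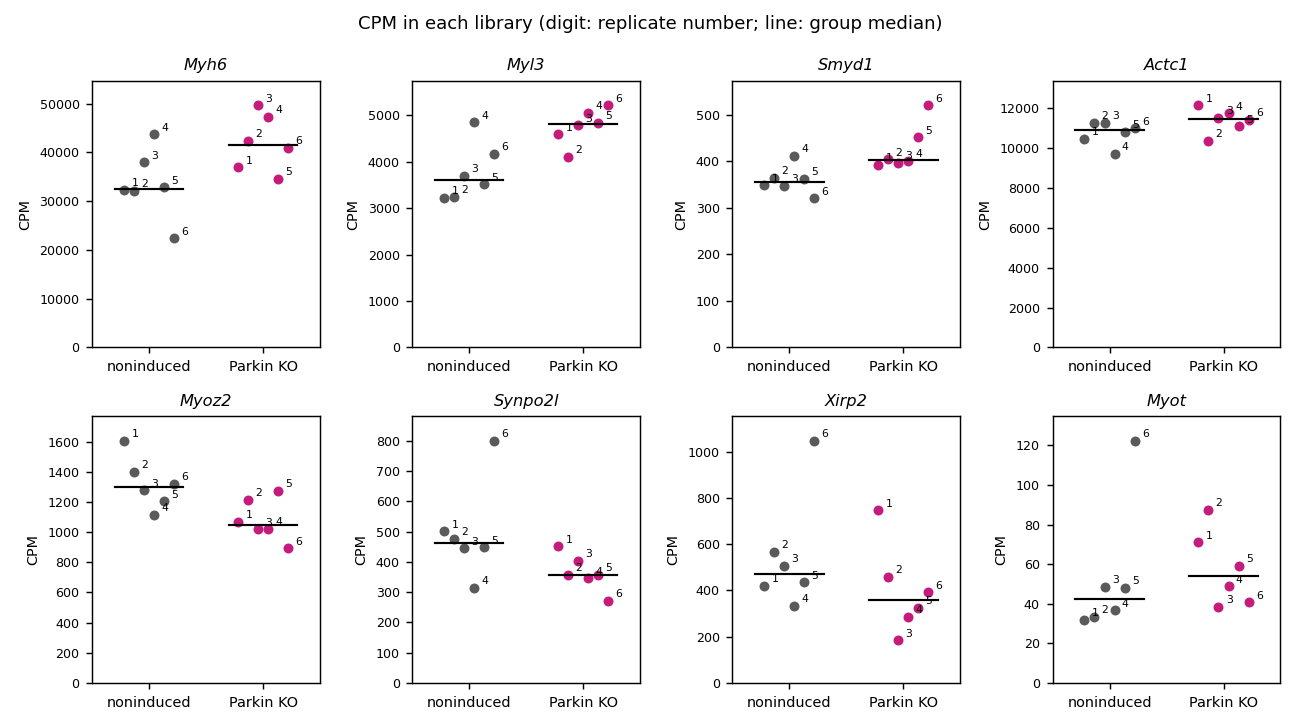
CPM of 8 members in each library, with the replicate number beside each point and a line at the group median; axes start at 0. The groups overlap in every panel, and noninduced 6 is the lowest library for Myh6 (22370) and the highest for Xirp2 (1048), Synpo2l (801) and Myot (122).

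The larger differences lay between libraries within a group. Noninduced 6 was the highest of the 12 libraries for 7 members (Myot, Pdlim5, Des, Flnc, Xirp2, Nrap and Synpo2l) and the lowest for 9 (Myh6, Smyd1, Tnnt2, Tnni3, Tmod1, Tcap, Pdlim3, Nebl and Fhl2). Of all genes tested, 12.3% had their highest and 13.9% their lowest value there. The library labelled noninduced 1 was close behind, highest for 6 members (Tnnt2, Lmod2, Actn2, Ldb3, Myoz2 and Mypn) and lowest for 8, beside 17.8% and 16.7% of all genes. Relative to the median of the other 11 libraries, Myot was 2.55-fold, Xirp2 2.49-fold, Synpo2l 1.98-fold and Nrap 1.55-fold higher in noninduced 6. On the other side Myh6 was at 0.588 of that median, Tnni3 at 0.631, Fhl2 at 0.646 and Nebl at 0.678. Actc1 (0.976), Actn2 (1.02) and Ttn (0.936) stood near it. So 5 of the 7 genes of the desmin, filamin and Xin group had their highest value in this heart (Des, Flnc, Xirp2, Nrap and Synpo2l). Xirp1 (0.871) and Cmya5 (0.845) of that group were below the median. Each of the other roles except titin and the M-band had members at their lowest there, beside others near or above the median. Examples are Myh6 (0.588) beside Mybpc3 (1.2) and Tnni3 (0.631) beside Tnnc1 (1.05).

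The same library had the highest summed level of 10 fibroblast markers (1861 CPM, against 651 to 1452 CPM in the other 11) and of 9 macrophage markers (281 CPM, against 177 to 265 CPM). It had the lowest sum of the 14 ventricular markers outside the sarcomere (35570 CPM), and its 4108 CPM of 8 atrial markers was nearly all Nppa (4049 CPM), the natriuretic peptide of the atria and of the stressed ventricle. Its Myl7 (1.37 CPM), Myl4 (2.85) and Mybphl (0.438) were low, whereas noninduced 2 and 5 had 760 and 1107 CPM of Myl7. In bulk tissue fewer cells of a type and less RNA per cell cannot be told apart, and the part of these markers in the members' levels was not tested. Over members, the SD of log2 CPM was larger in noninduced than in Parkin KO libraries for 28 of 34 (82.4%), beside 64.5% of all genes. Without noninduced 6 it was larger for 22 (64.7%), beside 58.0% of all genes. Leaving out noninduced 6 left no member past an adjusted p of 0.05, with a lowest value of 0.311. At an unadjusted p under 0.05, 7 members then passed (Myl3, Mybpc3, Smyd1, Myot, Pdlim5 and Nrap higher, Myoz2 lower), beside 14.4% of all genes.

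**Figure D4:**
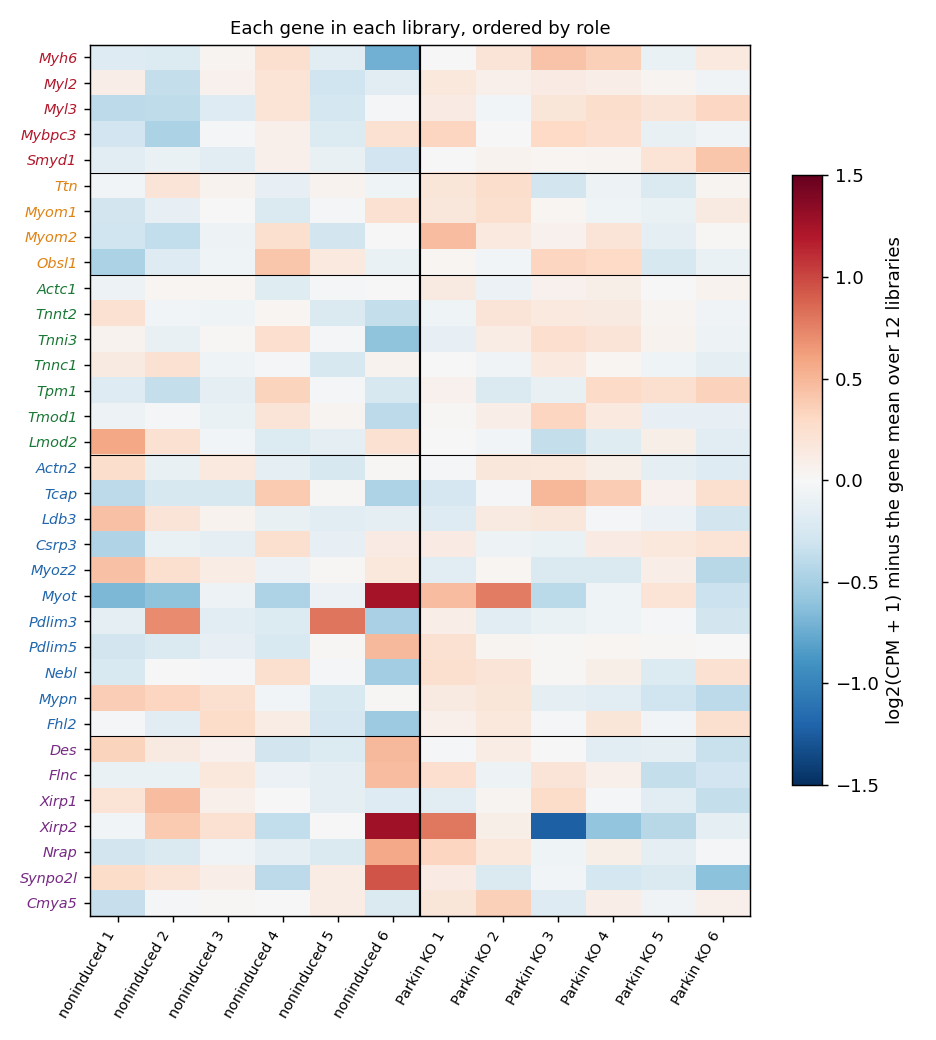
Log2(CPM + 1) of each member in each library minus the mean of that member over the 12 libraries, with gene names coloured by role. Noninduced 6 has the darkest red fields (Myot, Xirp2 and Synpo2l) and is the bluest library for Myh6, while Xirp2 is red in Parkin KO 1 and dark blue in Parkin KO 3.

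Isoform shares set each adult ventricular gene against the related gene used in the fetal heart, in skeletal muscle or in the atria, from counts per kilobase of exon. Myh7, the slow beta-myosin heavy chain of the fetal and stressed rodent ventricle, lies beside Myh6 on chromosome 14 (chr14:54970684-54994626, with Myh6 at chr14:54941921-54966927). The Myh7 share of the pair was 0.903% to 7.19% (median 3.34%) in Parkin KO and 0.747% to 18.4% (median 0.918%) in noninduced libraries. Noninduced 6 was alone at 18.4%, since no other control exceeded 1.59%, and Parkin KO 1, 5 and 6 were at 5.28% to 7.19% while the other 3 were at 0.903% to 1.39%. The mean difference, Parkin KO minus noninduced, was -0.04 percentage points (exact two-sided permutation p = 0.981), and 5 of 6 Parkin KO libraries were above the noninduced median. Without noninduced 6 the difference was 2.86 percentage points (exact permutation p = 0.0563). Myh6 and Myh7 are near-identical over long stretches, so reads could be split between them in ways that depend on the counting. From the deposited FPKM the Myh7 share was much higher, at 11.8% to 30.4% (median 12.3%) in noninduced and 12.3% to 20.9% (median 18.6%) in the 4 Parkin KO libraries with a value, and the level of this share is therefore uncertain. The highest library was noninduced 6 in both tables. Also, 13.3% of the exon bases of Myh7 are shared with opposite-strand genes.

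Acta1, skeletal alpha-actin, made up 5.36% to 21.0% (median 6.86%) of Acta1 and Actc1 in Parkin KO and 2.49% to 46.8% (median 4.90%) in noninduced libraries. The single high libraries were again Parkin KO 1 and noninduced 6, the ones with the most Xirp2 in their groups. All 6 Parkin KO libraries were above the noninduced median, but the mean difference was -2.80 percentage points (exact permutation p = 0.959), and 4.21 points without noninduced 6 (exact permutation p = 0.0866). These 2 actins are also near-identical in their coding sequence. Tnni1, the fetal troponin I, was close to absent, with 4 to 29 reads per library and shares of 0.00281% to 0.0171% of the troponin I pair.

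The atrial light chains behaved differently. Myl7 made up 29.7% and 37.1% of Myl7 and Myl2 in noninduced 2 and 5, 3.97% in noninduced 4 and 0.0348% to 1.56% in the other 9 libraries. Myl4 followed the same libraries, at 6.86% and 9.05% of Myl4 and Myl3 in noninduced 2 and 5. Mean differences were -11.3 percentage points for Myl7 (exact permutation p = 0.160) and -2.69 for Myl4 (p = 0.134, exact permutation), and without noninduced 2 and 5 they were -0.53 and -0.12. The size of these shares depends on the exon lengths used. From the deposited FPKM, noninduced 2 and 5 had Myl7 shares of 12.4% and 16.6% and Myl4 shares of 14.6% and 18.8%, and the mean differences were -4.89 and -5.65 percentage points (exact permutation p = 0.160 and 0.134). Over the 5 shares the Benjamini-Hochberg adjusted p of these exact permutation tests was 0.400 at the lowest, and 0.00216 is the smallest p that 6 against 6 libraries can give. Leaving out these 2 libraries left the members' median at 0.09 with 22 higher.

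**Figure D5:**
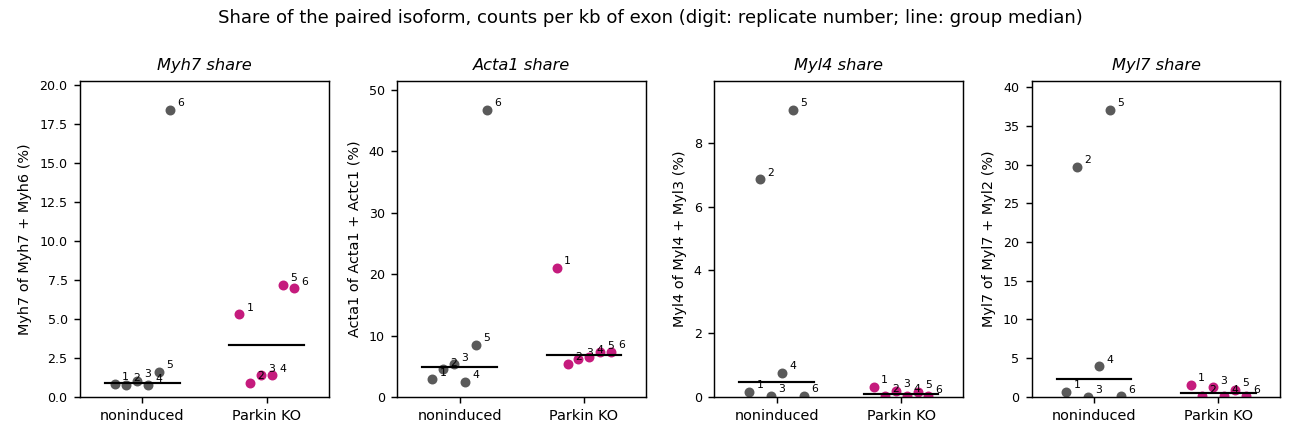
Share of the related gene in each of 4 pairs, in percent of counts per kilobase, by library, with replicate numbers and group medians; axes start at 0. Noninduced 6 stands alone for Myh7 (18.4%) and Acta1 (46.8%), and noninduced 2 and 5 stand alone for Myl4 and Myl7.

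Other genes of the sarcomere pathway were described from lists chosen with the members. Of 26 other sarcomere proteins tested, 11 were higher and 15 lower in Parkin KO, and none passed the test. The split was 14 and 12 without noninduced 6, and 8 and 20 of 28 without the libraries labelled noninduced 1 and 3. The lowest p belonged to Mybphl, a myosin-binding protein of the atria and conduction system, at 0.256 to 5.81 CPM (median 2.37) in Parkin KO and 0.438 to 173.5 CPM (median 9.42) in noninduced libraries (log2 fold change -4.36 ± 1.26; edgeR adjusted p = 0.417). The high values of Mybphl were in noninduced 2 (132.7 CPM) and 5 (173.5 CPM), the libraries with the most Myl7, and the other 4 controls were at 0.438 to 16.9 CPM. Next came Actn1, the alpha-actinin of non-muscle and smooth muscle cells, at 41.1 to 54.5 CPM (median 47.8) against 46.7 to 75.4 CPM (median 58.2), a log2 fold change of -0.34 ± 0.12 (edgeR adjusted p = 0.417). Of 13 stress sensors, kinases and ligases, 6 were higher and 7 lower. Trim54 and Trim63, the MuRF ubiquitin ligases of the sarcomere, had the lowest p there, with log2 fold changes of 0.32 ± 0.12 and 0.23 ± 0.09 (both at an edgeR adjusted p of 0.424). Trim54 was at 320 to 389 CPM (median 338) in Parkin KO and 216 to 357 CPM (median 286) in noninduced libraries, with noninduced 6 the highest control. An opposite-strand gene shares 26.6% of the exon bases of Trim54. Trim63 was at 239 to 307 CPM (median 270) in Parkin KO and 204.5 to 257 CPM (median 230) in noninduced libraries, with overlap.

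Of 22 genes of the costamere, which couples Z-discs to the membrane, 11 were higher and 11 lower. Parva, an actin-binding partner of integrin-linked kinase, had groups that just did not overlap, at 61.1 to 70.1 CPM in Parkin KO and 70.2 to 75.1 CPM in noninduced libraries, yet its log2 fold change of -0.15 ± 0.06 had an edgeR adjusted p of 0.424. Groups did not overlap for 0.345% of all genes, and Parva was picked for the lowest p of this list. Of 13 chaperones 4 were higher and 9 lower, or 7 and 6 without the libraries labelled noninduced 1 and 3. They were led by Cryab, alpha-B-crystallin, which protects desmin, at 2816 to 3923 CPM (median 3701) in Parkin KO and 3021 to 7786 CPM (median 4775) in noninduced libraries. Cryab differed by -0.45 ± 0.19 in log2 fold change (edgeR adjusted p = 0.424), and that of Hspb6 was -0.29 ± 0.15 (adjusted p = 0.456).

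All 18 regulators of sarcomere genes had fitted values lower in Parkin KO, with a median of -0.21 beside 0.01 for all genes, and none passed the test. Of all 13050 genes tested, 6267 were lower. The list was chosen with earlier results of these data known, so this count of directions is a description only. Srf, serum response factor, was at 200.5 to 249.5 CPM (median 232) in Parkin KO and 208 to 360 CPM (median 280) in noninduced libraries, a log2 fold change of -0.31 ± 0.12 (edgeR adjusted p = 0.424). Tbx5, a T-box factor of the atria and left ventricle, was at 56.4 to 86.5 CPM (median 68.1) against 43.7 to 161 CPM (median 92.2), a log2 fold change of -0.58 ± 0.25 (adjusted p = 0.424 in edgeR). Noninduced 2 and 5 stood apart with 152.4 and 161.2 CPM of Tbx5, while the other 4 controls were at 43.7 to 101.2 CPM. The members' own median lay on the other side of 0. Without the libraries labelled noninduced 1 and 3, 14 of the 18 regulators were lower and their median was -0.06.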

How the data were processed

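Polyadenylated RNA of 12 mouse heart libraries (6 noninduced, 6 Parkin KO) was sequenced single-end without strand information, per the labels' protocols. The authors deposited HTSeq read counts per gene and FPKM from Cufflinks 2.1, after alignment with TopHat2 2.0.10 and Bowtie2 to mm10, per the submitters' processing notes. How reads that fit several genes were counted is not stated there. The columns named KO and wt were taken as the samples of the Parkin KO and noninduced groups with the same number.

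From the counts, edgeR 4.0.16 (R 4.3.3) gave TMM factors, CPM and quasi-likelihood tests over the 13050 genes that passed filterByExpr, with Benjamini-Hochberg adjustment and a threshold of 0.05. The standard error was derived from the estimate and F. Isoform shares used counts per kilobase of merged exons (GENCODE M21) and exact two-sided permutation over 924 splits (SciPy 1.17.1). The edgeR fit was tested on simulated counts. Alternatives included DESeq2 1.42.0, limma 3.58.1 on the deposited FPKM, other scalings, a sex term, libraries left out and a replicate block. The members and gene lists were chosen with earlier results of these data known. Genes described in full are, in each role, the 3 members of smallest p, plus Myh6, Ttn, Actc1, Actn2, Des and the 3 members of widest spread, and the 2 genes of smallest p in each pathway list, of which 1 is not reported here. Promoters are RefSeq windows on GRCm38.p6. No 2 libraries of a group agreed within sampling noise (smallest chi-square per degree of freedom 11.9). Totals of 11610507 to 16884516 counts make counting error small for members with many reads. It is larger for Pdlim3, with 150 to 445 reads per library. The number of libraries also limits the precision.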

Additional observations from a re-analysis of the deposited data

Results flagged for a closer look

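In each group of 6, the gap between an extreme library and its neighbour was set against the whole range of the group (Dixon's ratio, critical value 0.625). The 78 groups checked come from the same libraries and are not independent. No chance rate and no share of all genes was set beside the number of flags. Of the 78 groups, 9 exceeded the critical value, and 6 of the 9 were in noninduced 6. There Myot reached 122 CPM (next library 48.5), Pdlim5 358 CPM (next 258), Xirp2 1050 CPM (next 568) and Nrap 2200 CPM (next 1430). The Myh7 share was 18.4% in that library (next 1.59%) and the Acta1 share 46.8% (next 8.53%). In Parkin KO 1, Pdlim5 was at 300 CPM (next 264) and the Acta1 share at 21.0% (next 7.38%). In Parkin KO 3, the Tnni1 share was 0.016% (next 0.00728%), a share that rests on 4 to 29 reads per library. Noninduced 6 also had the highest sums of fibroblast (1861 CPM) and macrophage (281 CPM) markers, and their part in these values was not tested. Without noninduced 6, the log2 fold change of Pdlim5 went from 0.09 to 0.22 and that of Myot from 0.10 to 0.52 (edgeR adjusted p = 0.311 for both).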

How the results depend on the processing

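No member passed an adjusted p of 0.05 under any of 25 alternatives, the lowest being 0.176, for Myl3 in DESeq2. Myh6 and Xirp2 were tested in only 23 of the 25, since the fits on FPKM left them out. Over the alternatives, 20 to 23 members were higher in Parkin KO, their median log2 fold change was 0.05 to 0.15, and 27 of 34 members never changed sign. The count of all genes called was 0 except for 10 in DESeq2 and 1 without noninduced 1 and 3, and 628 to 2131 genes had an unadjusted p under 0.05. The replicate block gave a median of 0.12 with 22 members higher and 0 genes called. Whether the replicate numbers pair the samples is not settled. Correlations of deviations between libraries of the same number ran from -0.111 to 0.2, and only replicate 2 correlated best with its own number.

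Signs turned for 7 members, and the cause was not tested. Ttn was 0.00884 without TMM factors, 0.0426 without noninduced 2 and 5, and 0.00457 and 0.00455 on log2 FPKM with pseudocounts of 1 and 0.1. With single libraries left out, Ttn ranged from -0.0838 to 0.0248. Obsl1 was -0.0429 without noninduced 1 and 3 (single libraries left out, -0.0137 to 0.172). Tnnc1 was 0.011 with a sex term and 0.0251 in female libraries. Actn2 was -0.0583 without noninduced 2 and 5 (single libraries left out, -0.0328 to 0.0659). Myot was -0.052 in female libraries, -0.0826 without noninduced 1 and 3, and -0.0616 without noninduced 2 and 5 (single libraries left out, -0.0663 to 0.524). Pdlim3 was 0.165 without noninduced 2 and 5. Flnc was 0.149 in female libraries (single libraries left out, -0.123 to 0.0272).

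Among isoform shares, the Myh7 difference was 0.0692 percentage points from raw counts and 2.26 from FPKM, where Myh6 is listed at 0 in 2 libraries, and -0.706 to 2.86 with single libraries left out. The Myl7 difference of -11.3 was -4.46 from raw counts and -4.89 from FPKM, and the Myl4 difference of -2.69 was -5.54 and -5.65. The Acta1 difference was -5.22 to 4.21 with single libraries left out. The Tnni1 difference was 0.000789 without noninduced 2 and 5. The Myl4 difference was -4.05 without noninduced 1 and 3 (exact permutation p = 0.0476, not adjusted).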
